A study of Mus musculus with 12 samples.

Results

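Astrocytes are followed here through 10 genes, Gfap, Aqp4, Aldh1l1, Slc1a2, Slc1a3, Gja1, Gjb6, S100b, Vim and Serpina3n, which were chosen by their symbols as genes of astrocyte identity and reactivity and were all found among the 17202 genes of the table of normalized counts. The libraries came from 12 mice, 3 in each of 4 groups, and held RNA of the cortex. CD mice carry a heterozygous deletion from Gtf2i to Fkbp6 and serve as a model of Williams-Beuren syndrome. The groups were VEH-WT and VEH-CD, wild-type and CD mice that drank water with the solvent DMSO and that the labels call untreated, and VERCUR-WT and VERCUR-CD, which drank curcumin (60 mg/kg/day per the labels) together with verapamil (10 mg/kg/day per the labels). Curcumin is a phenol of turmeric and verapamil blocks calcium channels. The labels give a strain written as C57Bl6, a start of treatment at 8 weeks of age, a duration of 1 month and an age of 16 weeks at dissection. The study's methods give a lower verapamil dose and an earlier end, name the tissue as frontal cortex, and state that the CD line was crossed with Thy1-YFP mice, in which a neuronal promoter drives a fluorescent protein in pyramidal neurons. The deletion is present in every cell of a CD mouse, so that a difference between genotypes cannot be assigned to astrocytes themselves, and no group received curcumin or verapamil alone in these libraries.

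Astrocytes clear glutamate and potassium from the space around synapses, exchange water and solutes with blood vessels through their endfeet, and are joined to each other by gap junctions. After injury or in disease they can become reactive, a state in which the filament proteins Gfap and Vim and secreted proteins such as Serpina3n typically increase. In healthy mouse cortex most grey matter astrocytes hold little Gfap, while astrocytes of the white matter and of the surface beneath the meninges hold much more. The same RNA can thus reflect the number of astrocytes, their kind or their state, and in bulk tissue fewer astrocytes and less RNA per astrocyte cannot be told apart.

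By the GENCODE annotation of GRCm38, Gfap spans chr11:102887336-102900912 on the minus strand, Slc1a2 chr2:102658659-102790784 on the plus strand, Slc1a3 chr15:8634124-8710764 on the minus strand and Gja1 chr10:56377330-56402513 on the plus strand. Gjb6 spans chr14:57123303-57133611 on the minus strand, S100b chr10:76253853-76261159 on the plus strand, Vim chr2:13573927-13582826 on the plus strand, Aldh1l1 chr6:90486427-90600203 on the plus strand and Serpina3n chr12:104406729-104414329 on the plus strand. None is in the deleted interval on chromosome 5. Each value counts the reads assigned to a whole gene, and transcripts of 1 gene were not separated.

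Promoters are shown for 5 of the genes because their RNA levels rose and fell together from mouse to mouse in 2 sets, described further on, or, for Gfap, because over the 12 mice it followed neither set closely. Slc1a3 and Gja1 belong to the first set, and S100b and Gjb6 to the second. Each line is the stretch of 250 bases before the RefSeq start of the gene in GRCm38.p6, 5′ to 3′ on the strand of the gene, with motif matches in capitals. These 5 windows hold no base of a GENCODE exon. The window of Gfap, chr11:102897201-102897450, lies inside the longer GENCODE span of the gene. The others are chr15:8710808-8711057 for Slc1a3, chr10:56377050-56377299 for Gja1, chr10:76253586-76253835 for S100b and chr14:57133612-57133861 for Gjb6.
Slc1a3: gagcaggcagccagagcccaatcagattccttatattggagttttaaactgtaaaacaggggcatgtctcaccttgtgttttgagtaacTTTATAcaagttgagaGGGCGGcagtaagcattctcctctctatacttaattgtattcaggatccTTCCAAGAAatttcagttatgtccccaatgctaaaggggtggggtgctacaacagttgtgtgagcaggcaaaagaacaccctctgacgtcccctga
Gja1: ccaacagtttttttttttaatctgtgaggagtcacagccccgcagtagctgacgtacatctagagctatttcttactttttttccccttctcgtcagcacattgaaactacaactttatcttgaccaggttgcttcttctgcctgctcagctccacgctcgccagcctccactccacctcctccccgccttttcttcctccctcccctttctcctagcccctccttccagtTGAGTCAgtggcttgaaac
S100b: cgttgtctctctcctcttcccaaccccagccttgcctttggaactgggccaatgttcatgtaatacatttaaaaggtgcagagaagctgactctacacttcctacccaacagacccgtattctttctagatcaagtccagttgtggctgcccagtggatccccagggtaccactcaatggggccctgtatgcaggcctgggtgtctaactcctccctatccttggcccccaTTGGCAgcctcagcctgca
Gjb6: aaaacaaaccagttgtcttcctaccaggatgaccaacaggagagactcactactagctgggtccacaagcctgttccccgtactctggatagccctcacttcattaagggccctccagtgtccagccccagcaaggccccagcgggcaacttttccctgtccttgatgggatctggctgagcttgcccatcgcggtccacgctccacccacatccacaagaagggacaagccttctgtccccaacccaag
Gfap: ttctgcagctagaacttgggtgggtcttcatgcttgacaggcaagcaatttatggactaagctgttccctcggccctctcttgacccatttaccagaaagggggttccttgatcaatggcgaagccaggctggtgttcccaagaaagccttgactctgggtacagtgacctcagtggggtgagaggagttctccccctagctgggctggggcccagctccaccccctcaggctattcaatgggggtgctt

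The motifs searched on both strands, with no overlap among the matches shown, were the STAT motif TTCNNNGAA, the AP-1 motif TGANTCA, the TATA motif TATAAA, the GC box GGGCGG, the NFI half-site TTGGCA and the E-box CACGTG. Slc1a3 held a STAT match, TTCCAAGAA, that began 96 bases before the start, a TATA match on the other strand that began 161 bases before it and a GC box that began 145 bases before it. Gja1 held an AP-1 match, TGAGTCA, from 19 to 13 bases before the start, and S100b an NFI half-site from 19 to 14 bases before it. No match was found in these windows of Gfap and Gjb6. Among 32851 windows of the same length, 7.02% held the STAT motif, 6.75% the AP-1 motif, 12.4% the TATA motif, 32.7% the GC box, 12.3% the NFI half-site and 6.02% the E-box, and no motif was found in more than 1 of the 5 windows shown.

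The labels were first checked on the deleted genes. In CD mice the level of 10 of them, as the median over genes relative to the VEH-WT mean, was 0.476 to 0.511, against 0.959 to 1.02 in wild-type mice, and for each of the 10 the genotypes did not overlap. Gtf2i fell by 0.95 ± 0.05 (log2, SE) and Limk1 fell by 1.20 ± 0.06 in VEH-CD against VEH-WT mice. Each library held 40300000 to 56500000 counted reads. One library stood apart. VERCUR-CD replicate 2 had the highest value of the 12 mice in 21.5% of the genes tested and the lowest in 17.9%, against at most 12.8% and 10.6% in any other library. Its deviation from the group mean rose with the exon length of the gene (r = 0.29 across genes), the strongest such relation of the 12 libraries, so values that it moved are given also without it. In VERCUR-CD replicate 1, of the same group, the deviation fell with exon length (r = -0.25). The deviations of the 3 mice of a group sum to 0, so this fall is not separate from the rise in replicate 2. In VEH-CD replicate 2 the relation with exon length was r = 0.23. Markers of other cell types were present in every mouse, and none was at 0. Their summed levels ranged 4.57-fold for 4 of 4 striatal neuron markers, 2.87-fold for 6 of 6 oligodendrocyte markers, 3.15-fold for 2 of 3 ependymal markers, 1.29-fold for 7 of 7 microglial markers and 1.13-fold for 6 of 6 neuronal markers.

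The 10 genes differed widely in level, and Slc1a2 dominated them. Slc1a2 encodes the main glutamate transporter of cortical astrocytes, and its mean normalized count of 140600 was the 14th highest of the table and 0.288% of all counts. Per kilobase of annotated exon, the level of Slc1a2 was 10700 (8440 to 15900 over the 12 mice). S100b, a calcium-binding protein that oligodendrocytes also make, and Slc1a3, the other astrocyte glutamate transporter, followed at 3270 and 3120, and their ranges (2600 to 3980 and 2640 to 3650) overlapped. Gfap was at 1110, and Gjb6, Aldh1l1, Gja1 and Aqp4 were at 849, 806, 758 and 643. The ranges of these 5 overlapped each with the next, so the ranges do not give their order. All genes were measured in the same mice, and the order within each mouse was not compared. Vim and Serpina3n were lowest, at 323 and 276, again with overlapping ranges (294 to 368 and 239 to 310). Exon length was the union of all annotated exons, which lowers the level per kilobase of genes with many alternative exons. All 10 genes together took 0.33 to 0.538% of the counts of a mouse.

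The first comparison asked whether the deletion changed these genes under vehicle. None of the 10 differed between VEH-CD and VEH-WT mice by the test used throughout, limma on log2(normalized count + 1) over 17111 genes, in which a call needed a Benjamini-Hochberg adjusted p under 0.05 together with a fold change past the limits that the methods set. Over all genes tested, 44 were called (0.257%), 35 of them lower, so that a count of 0 among 10 genes is near the background. The log2 fold changes of the 10 ran from -0.26 for Aqp4 to 0.11 for Gfap with a median of -0.03, beside a median of 0 over all genes, and 8 were negative. Their 95% intervals, as fold changes, ran from 0.641 at the lowest to 1.38 at the highest. These 2 ends belong to Aqp4 and Gfap, and other genes had narrower intervals, such as 0.943 to 1.21 for Vim. With 3 mice a group, a difference inside the interval of a gene is not excluded for that gene. No gene had an unadjusted p under 0.05, against 2020 of all genes (11.8%), and none had groups that did not overlap, against 20.6% of all genes.

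Gfap, the filament protein by which astrocytes are usually stained, had normalized counts of 4248, 3836 and 4965 in VEH-WT mice and 4279, 4274 and 5596 in VEH-CD mice. The means were 4349 ± 571 and 4716 ± 762 (SD, n = 3), and the groups overlapped over most of their range. The log2 fold change was 0.11 ± 0.16 (SE, limma adjusted p = 0.804). Vim, a second filament protein, which endothelial cells and fibroblasts also make, was at 1438 ± 60.7 and 1536 ± 111, a log2 fold change of 0.09 ± 0.08 (limma adjusted p = 0.677). Serpina3n, a secreted inhibitor of serine proteases that marks reactive astrocytes, was at 588.1 ± 53.5 and 569.8 ± 67.1. Its log2 fold change was -0.05 ± 0.11, with an interval from -0.28 to 0.18. The reactivity genes thus showed neither a rise nor a fall beyond the spread between mice.

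Aqp4 is the water channel of the endfeet that astrocytes place on blood vessels. Its normalized counts were 4192, 3281 and 4728 in VEH-WT mice and 3335, 3175 and 3604 in VEH-CD mice. All CD values lay below 2 of the 3 wild-type values, and VEH-WT replicate 2 lay among the CD mice. The log2 fold change was -0.26 ± 0.18 (limma adjusted p = 0.598), and it moved from -0.40 without VEH-WT replicate 2 to -0.14 without VEH-WT replicate 3. Gjb6, one of the connexins of astrocyte gap junctions, had the smallest adjusted p of the 10. Its counts were 2358, 2209.9 and 2522 in VEH-WT mice and 2038, 1753 and 2342 in VEH-CD mice, a log2 fold change of -0.22 ± 0.10 (limma adjusted p = 0.438). The log2 fold change moved from -0.32 without VEH-CD replicate 3 to -0.11 without VEH-CD replicate 2, the mouse with the lowest value. Gja1, the other astrocyte connexin here, had a log2 fold change of -0.03 ± 0.13.

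Slc1a2 had normalized counts of 135126, 118599 and 157639 in VEH-WT mice and 126719, 110829 and 129062 in VEH-CD mice. The groups overlapped, and the log2 fold change was -0.16 ± 0.17 (limma adjusted p = 0.730). It was -0.06 after a correction for exon length. Slc1a3 differed less, with means of 25500 ± 2680 and 24820 ± 1750 and a log2 fold change of -0.04 ± 0.09. Aldh1l1, a folate enzyme used as a marker of all astrocytes, was at 3544 ± 341 and 3542 ± 614, and S100b at 4767 ± 269 and 4738 ± 764. Their log2 fold changes of -0.01 and -0.02 were the nearest to 0 of the 10.

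**Figure D1:**
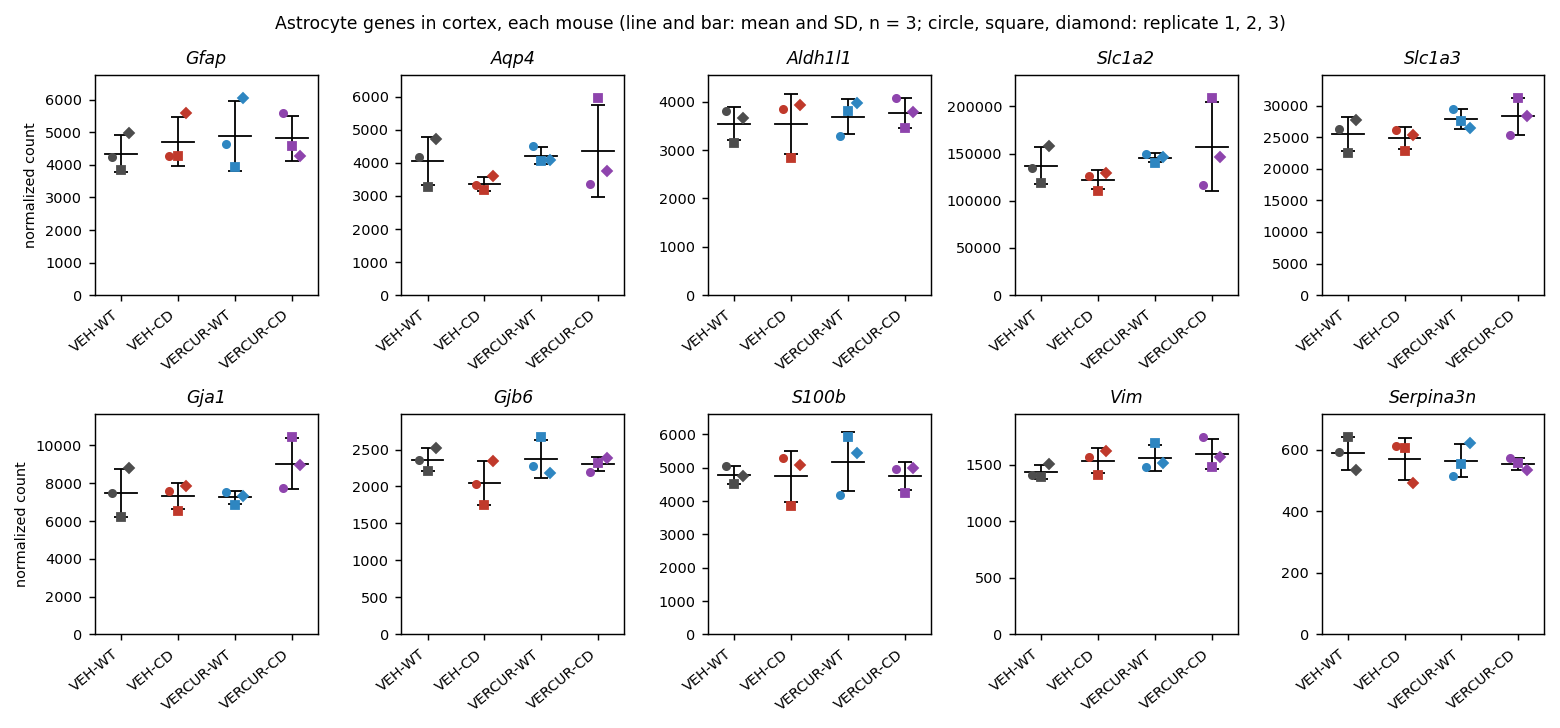
Normalized counts of the 10 genes (y axis, from 0) in each mouse of the 4 groups (x axis), with the group mean and SD (n = 3). The groups overlap in nearly every panel, and VERCUR-CD replicate 2 has the highest value of Slc1a2, Aqp4, Slc1a3 and Gja1.

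The comparisons with treatment asked whether the co-treatment changed astrocyte genes in either genotype. None of the 10 was called in VERCUR-CD against VEH-CD mice, in VERCUR-WT against VEH-WT mice or in the mean of both, and of all 17111 genes limma called none either (0% in each). At an unadjusted p under 0.05 there were 605, 893 and 506 of all genes, and 1 (Gja1), 0 and 1 (Slc1a3) of the 10. These comparisons share their groups with one another, so agreement among them is not separate support. In the mean over both genotypes 9 of the 10 log2 fold changes were positive, with a median of 0.09, beside 0 for all genes tested. They ran from -0.05 for Serpina3n to 0.20 for Aqp4 and 0.21 for Slc1a2. Without VERCUR-CD replicate 2 Aqp4 was at 0.07 and Slc1a2 at 0.10, while 9 of the 10 were positive, with a median of 0.10 and a highest value of 0.12. Without VERCUR-CD replicate 1 Aqp4 and Slc1a2 were at 0.28 and 0.31. The genes varied together among mice, so their signs are not separate observations. VEH-CD replicate 2 was the lowest of the 12 mice for 5 of the 10, and VEH-WT replicate 2 for 4. With each mouse left out in turn, S100b ran from -0.01 to 0.13, Aldh1l1 from 0.01 to 0.12 and Gjb6 from 0.04 to 0.14. Each of these was lowest without VEH-CD replicate 2. As deviations from group means, the summed level of 3 of 3 oligodendrocyte precursor markers correlated at 0.72 to 0.94 with Aqp4, Slc1a2, Slc1a3 and Gja1. With the other genes its correlations ran from -0.59 for Serpina3n to 0.52 for Gjb6. The sum was 4901 to 6092 in VEH-WT, 4834 to 5361 in VEH-CD, 5440 to 5765 in VERCUR-WT and 5538 to 6072 in VERCUR-CD mice. The CD groups thus did not overlap, and the part of these markers in the treatment differences was not tested.

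Gja1 was at 7595, 6529 and 7833 in VEH-CD mice and at 7732, 10418 and 8962 in VERCUR-CD mice. The lowest VERCUR-CD value lay under the highest VEH-CD value, and the log2 fold change was 0.30 ± 0.13 (limma adjusted p = 0.867). It was 0.19 without VERCUR-CD replicate 2, 0.41 without VERCUR-CD replicate 1 and 0.21 after the correction for exon length. In VERCUR-WT mice Gja1 was at 7548, 6854 and 7341, below all 3 VERCUR-CD mice. This was the only gene of the 10 whose groups did not overlap in any comparison of 2 groups, and here it was 1 of 10, where 7.74% of all genes did not overlap. The log2 fold change of VERCUR-CD against VERCUR-WT was 0.31 ± 0.13 (limma adjusted p = 1.00). It was 0.20 without VERCUR-CD replicate 2 and 0.42 without VERCUR-CD replicate 1.

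Aqp4 and Slc1a2 had log2 fold changes as large in the treated CD mice, and these fell or rose with the mouse that was left out. Aqp4 was at 3370 and 3757 in VERCUR-CD replicates 1 and 3 and at 5960 in replicate 2. Slc1a2 was at 116354 and 146683 in the same 2 mice and at 208728 in replicate 2, above every other mouse of the 12. The log2 fold change of VERCUR-CD against VEH-CD fell from 0.33 ± 0.18 to 0.08 for Aqp4, and from 0.32 ± 0.17 to 0.10 for Slc1a2, without replicate 2. Without VERCUR-CD replicate 1 it rose to 0.49 for Aqp4 and 0.52 for Slc1a2. With all mice the limma adjusted p was 0.867 for both. Slc1a3 was at 26218, 22862 and 25370 in VEH-CD and at 25359, 31182 and 28311 in VERCUR-CD mice. Its mean treatment difference over both genotypes was 0.16 ± 0.06 on the log2 scale (limma adjusted p = 1.00). It was 0.12 without VERCUR-CD replicate 2 and 0.20 without VERCUR-CD replicate 1.

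The genes of reactivity also stayed within the spread between mice. Gfap was at 4651, 3940.03 and 6049 in VERCUR-WT mice and at 5594, 4583 and 4258 in VERCUR-CD mice. Each treated group held values both below and above the median of its vehicle group, and the mean treatment difference was 0.09 ± 0.11 (log2, limma adjusted p = 1.00). For Vim it was 0.09 ± 0.06 and for Serpina3n -0.05 ± 0.07. Among the other genes, Gjb6 was at 0.09 ± 0.07, Aldh1l1 at 0.08 ± 0.09 and S100b at 0.06 ± 0.09.

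Whether the genotype difference itself changed with treatment was tested as an interaction. None of the 10 passed, nor did any other gene (0%), with 1035 genes at an unadjusted p under 0.05. The largest interaction among the 10 was that of Gja1, at 0.34 ± 0.18 on the log2 scale (limma adjusted p = 0.816), and its interval of -0.05 to 0.72 included 0. Those of Aqp4 and Slc1a2, at 0.26 and 0.23, became 0.01 and 0.00 without VERCUR-CD replicate 2. Without VERCUR-CD replicate 1 both became 0.42. None of the 10 was called in VERCUR-CD against VERCUR-WT mice either, where 25 of all genes were (0.146%), nor in the mean genotype difference over both treatments, where 55 were (0.321%). VERCUR-CD against VEH-WT, in which genotype and treatment both differ, gave 0 of the 10 and 34 of all genes (0.199%). Non-overlapping groups were found for 8.34% of all genes in VERCUR-CD against VEH-CD, 9.72% in VERCUR-WT against VEH-WT and 13.9% in VERCUR-CD against VEH-WT, and for none of the 10 in these. Over the 8 comparisons the smallest limma adjusted p of any of the 10 genes was 0.438.

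**Figure D2:**
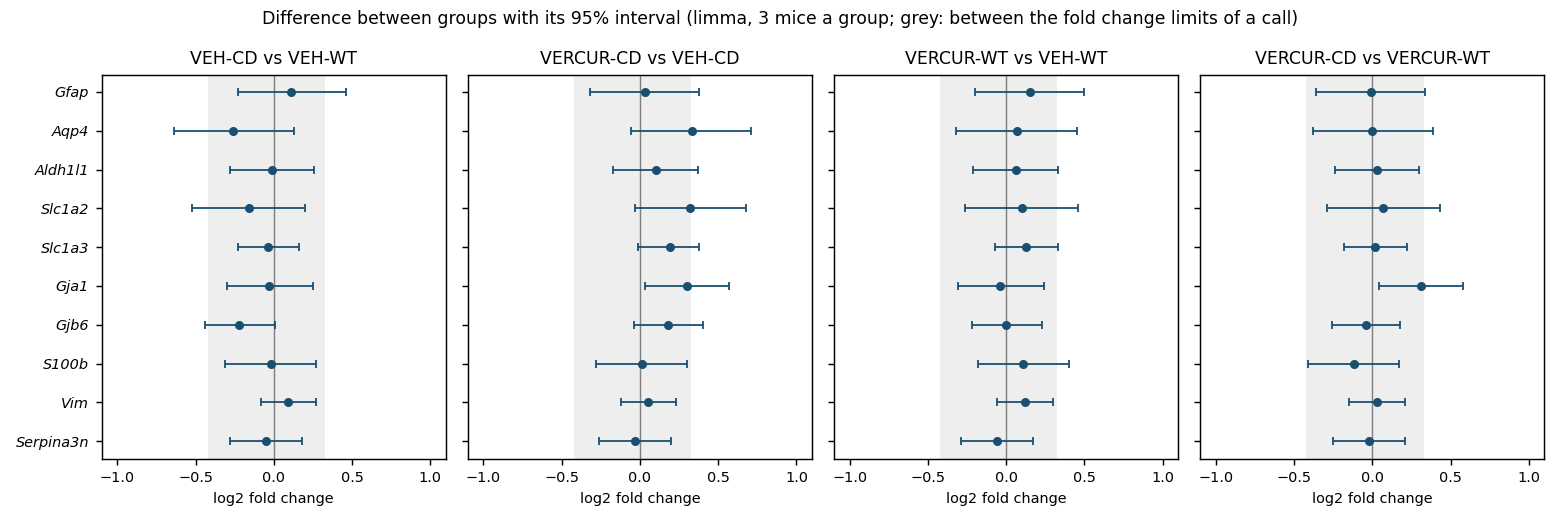
Log2 fold changes (x axis) of the 10 genes (y axis) in 4 comparisons of 2 groups, with 95% intervals from limma (3 mice a group), grey marking values between the fold change limits of a call. Every interval includes 0 except those of Gja1 in VERCUR-CD against VEH-CD (0.03 to 0.57) and against VERCUR-WT (0.04 to 0.58).

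The genes varied together among mice of the same group. The within-group SD on the log2 scale ran from 0.10 for Vim to 0.26 for Aqp4, with a median of 0.18, against 0.14 over all genes tested. The highest mouse was 1.88 times the lowest for both Aqp4 and Slc1a2, while Vim ran only from 1395 to 1743. Taken as deviations from the group means, Aqp4, Slc1a2, Slc1a3 and Gja1 rose and fell together, with Pearson correlations of 0.86 to 0.96 among their 6 pairs over 12 mice. These are the transporters, the water channel and 1 of the connexins. Aldh1l1, S100b, Vim and Gjb6 formed another set, with correlations of 0.58 to 0.89. Between the sets the 16 correlations ran only from -0.30 to 0.53. The sets were picked after these correlations were seen, and the values are a description of 12 libraries, with no test.

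The first set did not rest on the library that stands apart. Without VERCUR-CD replicate 2 its correlations were 0.88 to 0.96, those of the second set 0.62 to 0.88, and those between the sets 0.09 to 0.59. Its members are, however, the 4 of the 10 genes with the longest exons, 6233 bases for Aqp4, 8537 for Slc1a3, 10257 for Gja1 and 13133 for Slc1a2. After the correction for exon length, correlations were 0.61 to 0.91 within the first set, 0.39 to 0.82 within the second and -0.21 to 0.70 between them, so the distance between the sets narrowed. In VERCUR-CD replicate 2 the deviation of Slc1a2 was 0.45 on the log2 scale, and the trend with exon length over all genes gave 0.18 of it. The part of RNA quality or library preparation in this trend was not tested. Serpina3n ran against most of the others, with a correlation of -0.72 with Gjb6 and -0.55 with Gja1, and Gfap followed neither set closely, its highest correlation over the 12 mice being 0.49 with Aldh1l1. Without the VERCUR-CD group its correlations with genes of the first set were higher, at 0.63 with Gja1, 0.61 with Slc1a2 and 0.52 with Aqp4.

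**Figure D3:**
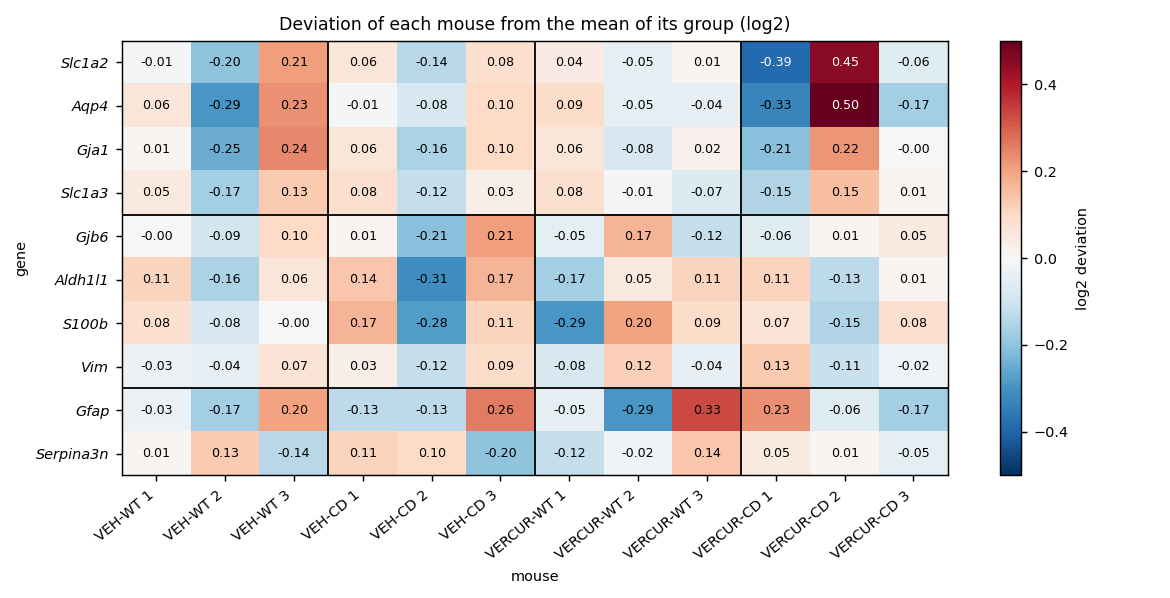
Deviation of each mouse (x axis) from the mean of its group, as log2 (colour and number), for the 10 genes (y axis), with lines between groups and between the 2 sets and the remaining genes. VERCUR-CD replicate 2 is high in Slc1a2 (0.45) and Aqp4 (0.50) and VEH-CD replicate 2 is low in Aldh1l1 (-0.31).

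The genes most like the mean of the 10 were sought over the 12 mice, again as deviations from group means. The 10 with the highest correlations (0.95 to 0.96) were Dazap2, 1110013H19Rik, Asrgl1, Ak3, St3gal6, Gprc5b, Klhdc7a, Fads2, Masp1 and Rassf2. Over 30 other genes of astrocyte identity, the median correlation was 0.72 and 24 lay over 0.5, against a median of 0.03 and 13.9% over 0.5 for all genes tested. For the 7 genes of the endfoot complex around Aqp4 the median was 0.65. For 6 genes held to rise in more than 1 form of astrocyte reactivity it was -0.05, with none over 0.5. Other lists of reactivity, described further on, differed. The median was 0.38 for 11 A1 genes, 4 of them over 0.5, and -0.05 for 9 A2 genes, 1 of them over 0.5. For 9 genes of reactivity signalling it was 0.44, with 3 over 0.5, and for 3 filament partners -0.13, with 1 over 0.5. The likeness was not limited to astrocyte genes. The median was 0.55 for the 6 oligodendrocyte markers, 5 of them over 0.5, 0.52 for 5 endothelial markers, 3 of them over 0.5, and 0.41 for both the microglial and the oligodendrocyte precursor markers. These correlations share the libraries, their depth and their exon length trend.

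Markers of other cell types moved with several of the 10 genes. The summed normalized count of the striatal neuron markers Drd1, Drd2, Adora2a and Ppp1r1b, which are low in cortex and high in the striatum beneath it, was 10100 to 19430 in VEH-WT, 9604 to 21980 in VEH-CD, 4886 to 22330 in VERCUR-WT and 5291 to 16640 in VERCUR-CD mice. Each group had 1 mouse with a far higher sum than its other mice, at 19430, 21980, 22330 and 16640. In 3 of these 4 mice Gfap was the highest of its group, and over the 12 mice the deviations of Gfap and of this sum correlated at 0.66. The correlation of Gfap with the summed oligodendrocyte markers was 0.65, and those of Aldh1l1 and S100b with the same sum were 0.66 and 0.60. Oligodendrocyte sums ran from 137400 to 215100 in VEH-WT, 128300 to 163000 in VEH-CD, 74950 to 193900 in VERCUR-WT and 115500 to 165100 in VERCUR-CD mice. The first set of genes did not follow the striatal markers, with correlations of -0.27 for Aqp4, -0.23 for Slc1a2, -0.24 for Slc1a3 and -0.03 for Gja1. It followed the oligodendrocyte precursor markers instead, with correlations of 0.73 for Aqp4, 0.72 for Slc1a2, 0.94 for Slc1a3 and 0.91 for Gja1, and 0.94, 0.89, 0.97 and 0.94 without VERCUR-CD replicate 2. With 4 of 4 choroid plexus markers, whose sum was 80.83 to 172.1 over all mice, the same genes correlated at 0.64, 0.53, 0.63 and 0.61, and Serpina3n at -0.80. With the summed microglial markers Aqp4, Slc1a2, Slc1a3 and Gja1 correlated at 0.30, 0.32, 0.72 and 0.58. Without VERCUR-CD replicate 2 these correlations were 0.75, 0.75, 0.94 and 0.78. Gfap correlated at 0.73 with the summed ependymal markers, which ran from 138.9 to 438.1. The part of these cell types in the values was not tested. With the striatal marker level as a covariate the mean treatment difference of Gfap was 0.24, against 0.09 without it, with a limma adjusted p of 1.00 both ways, and none of the 10 genes was called in any comparison. The part of dissection in the Gfap values was not tested beyond this covariate.

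**Figure D4:**
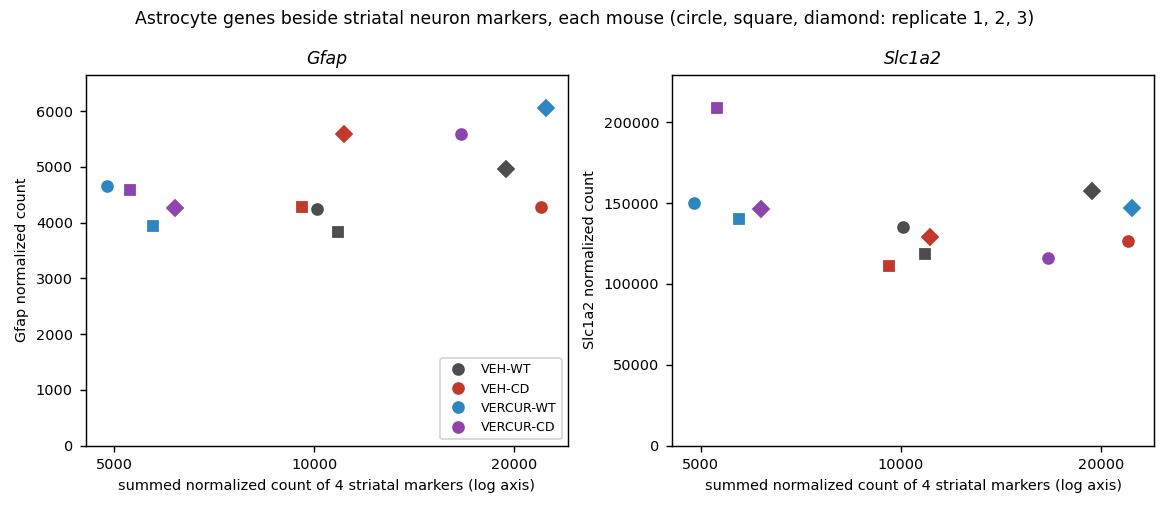
Normalized count of Gfap (left, y axis) and Slc1a2 (right, y axis) against the summed normalized count of 4 striatal neuron markers (x axis, log scale), 1 point for each of 12 mice, coloured by group. Gfap is highest in VERCUR-WT replicate 3 (6049), the mouse with the highest striatal sum (22330), while the highest Slc1a2 is in VERCUR-CD replicate 2, where that sum is 5291.

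Other astrocyte genes were read from 7 lists to see whether the 10 stood for their wider programmes. No gene of these lists was called in any of the 8 comparisons. Among 30 other identity genes, 15 were higher and 15 lower in VEH-CD than in VEH-WT mice, with a median log2 fold change of 0.01. Dio2, which activates thyroid hormone in astrocytes, was lowest at -0.50 ± 0.16 (limma adjusted p = 0.252), and Sox9, a transcription factor of astrocyte fate, was highest at 0.14 ± 0.09. Dio2 was at 4935, 7074 and 5745 in VEH-WT and at 3998, 3937 and 4491 in VEH-CD mice, and these groups did not overlap. Dio2 was at 3783, 6071 and 4127 in VERCUR-CD mice, of which only replicate 2 lay above the VEH-CD values, and the mean of the other 2 mice was 3955, against 4142 ± 304 in VEH-CD mice.

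The 7 genes of the endfoot complex that anchors Aqp4 had log2 fold changes of 0 or below in VEH-CD against VEH-WT mice, with a median of -0.16 and the lowest, -0.20 ± 0.15, in Dmd, which encodes dystrophin. Hepacam, an adhesion protein of endfeet, was at 0.00 ± 0.10. The smallest limma adjusted p of the 7 was 0.432, and in VERCUR-CD against VEH-CD mice 6 of the 7 were positive, with a median of 0.13, which fell to 0.07 without VERCUR-CD replicate 2 (7 of 7 positive). Among 3 partners of the intermediate filaments, Nes, which encodes the progenitor filament nestin, was at -0.28 ± 0.13 (limma adjusted p = 0.423), and Synm, which encodes synemin, at 0.01 ± 0.08.

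Genes of reactivity beyond Gfap, Vim and Serpina3n likewise held no call. Of 10 genes listed as pan-reactive, which are held to rise in more than 1 form of reactivity, 6 were tested, with a median of -0.04. Hspb1, a small heat shock protein, was the lowest of all the lists. It was at 290.3, 513 and 416 in VEH-WT and at 251, 219.9 and 269.5 in VEH-CD mice, with no overlap, and fell short of the threshold at a log2 fold change of -0.68 ± 0.18 (limma adjusted p = 0.168). The paper lists Hspb1 among its deregulated genes, from its own linear model after a correction on the coefficient of variation. Hspb1 is also made by blood vessel cells, and its mean was 296.1 ± 29.8 in VERCUR-WT and 221.7 ± 28.1 in VERCUR-CD mice. Cd44, a receptor for hyaluronan, was the highest of that list at 0.02 ± 0.21.

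The A1 and A2 lists hold genes first described in astrocytes after lipopolysaccharide and after ischaemia. Of 12 A1 genes, 11 were tested, with a median of 0.04 and values from -0.07 for Serping1, a complement inhibitor, to 0.18 for Psmb8, a subunit of the immunoproteasome. Of 12 A2 genes, 9 were tested, with a median of -0.22, from -0.36 ± 0.20 for Sphk1, a sphingosine kinase, to 0.09 for S100a10, a partner of annexin. The smallest limma adjusted p was 0.605 among the A1 and 0.501 among the A2 genes. Among 9 genes of reactivity signalling the median was -0.12, and 8 were negative. An unadjusted limma p under 0.05 was found for 3 of the 9, against 11.8% of all genes. Groups did not overlap for 4 of the 9, against 20.6% of all genes. Il1r1, the receptor of interleukin 1, was lowest at -0.53 ± 0.18 (limma adjusted p = 0.276), with 127, 124 and 149 in VEH-WT and 98.3, 92.7 and 83.9 in VEH-CD mice. Like Hspb1, it is listed by the paper among its deregulated genes. Tgfbr2, a receptor of TGF-beta, was highest at 0.12 ± 0.13. Lcn2, Steap4, Timp1, Cxcl10, C3, Tgm1, Ptx3 and Slc10a6 were not found by symbol among the 17202 genes of the normalized counts. They could therefore not be tested, and the lists were read without them.

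**Figure D5:**
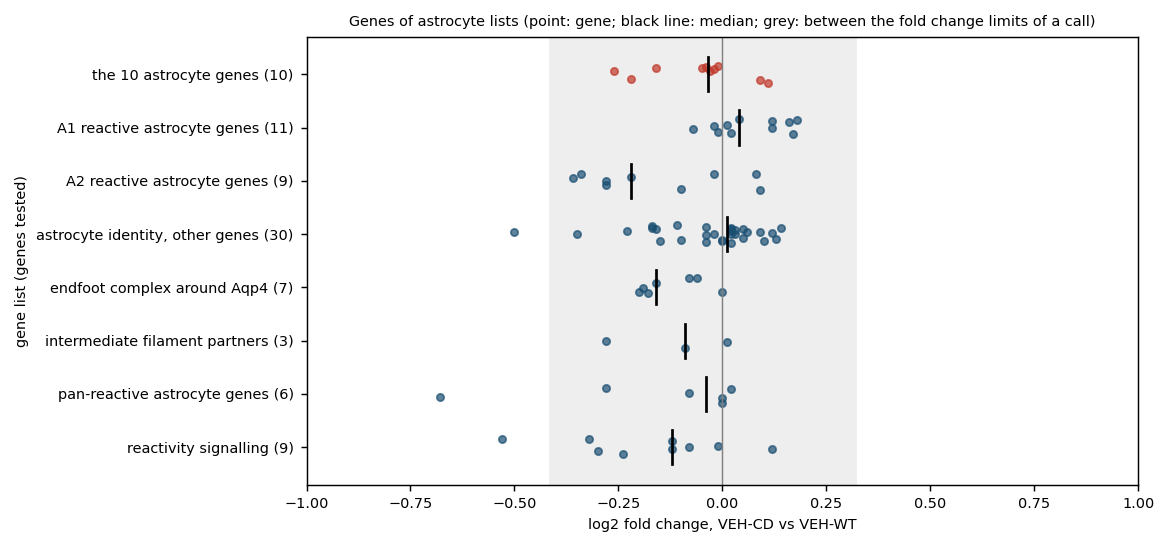
Log2 fold changes of VEH-CD against VEH-WT (x axis) for the 10 astrocyte genes and for 7 lists of other astrocyte genes (y axis, with the number tested), 1 point for each gene, a black line at the median and grey between the fold change limits of a call. Medians lie between -0.22 (A2 genes) and 0.04 (A1 genes), and the lowest point is Hspb1 at -0.68.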

How the data were processed

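Per the labels and the methods, 12 cortical RNA libraries, 1 for each mouse, were sequenced as paired-end reads, which the authors checked with FastQC and aligned to GRCm38 with STAR 2.5.3a. The authors deposited normalized counts. The counting program, annotation and normalization are not given in the sources used here. Low values fell on whole multiples of a step that was the same for all genes of a library (100% within 0.1 of a step), so the deposited values are reads divided by 1 factor per sample, and depth (40300000 to 56500000 reads) was read from that step. The precision of the comparisons is set by 3 mice a group rather than by depth. Mice were grouped by their labels, and their p-values measure the spread between these samples. No pair of libraries was identical (log2 correlations within a group of 0.986 to 0.994).

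Tests used limma 3.58.1 (R 4.3.3) on log2(normalized count + 1) for 17111 genes with a mean of at least 10, with 4 group means, an intensity trend, 8 two-sided contrasts and Benjamini-Hochberg adjustment over all genes tested. A call required an adjusted p under 0.05 with a fold change above 1.25 or below 0.75, or the adjusted p alone for the interaction. The test was checked on simulated data. Levels per kilobase and the exon length correction used GENCODE M21, in which 17181 genes were found, and promoters came from a RefSeq table in which 9 of the 10 genes were matched. Fold changes understate the change of low genes, through the pseudocount.

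The 10 genes, the gene lists and the rule for named genes were chosen with earlier results of these data known. Named are the 10 genes, any gene of a list that was called, the gene of each list that was highest and the one that was lowest in VEH-CD relative to VEH-WT mice, the 10 genes most like the mean of the 10, and Gtf2i and Limk1. Alternatives were 2 pseudocounts, 2 filters, quantile normalization, median centring, no intensity trend, only the groups compared, the replicate number as a block, removal of the farthest value where the CV was 20% or more, no fold change limit and each mouse left out in turn. A striatal marker covariate and the exon length correction were added after seeing the data, as were list medians and marker correlations without VERCUR-CD replicate 2. Tables of expression relative to VEH-WT that the authors also deposited were not used. One item of the marker lists is not reported here and entered none of the sums given.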

Additional observations from a re-analysis of the deposited data

How the results depend on the processing

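None of the 10 genes was called in any of the 8 comparisons under any alternative that was run, so the count was 0 throughout, also with each of the 12 mice left out in turn (lowest 0, highest 0) and with the replicate number as a block (0 of 10). The numbers did not pair the mice, since same-numbered mice deviated together no more than others (correlations of -0.347 to 0.267, against -0.235 to 0.325), and the block moved the count over all genes in VEH-CD against VEH-WT from 44 to 40. That count ranged from 24 without VEH-WT replicate 2 to 972 where the farthest value was removed in groups with a CV of 20% or more, a step that lowers the spread by construction and took out VERCUR-CD replicate 2 for Aqp4 and Slc1a2 and VERCUR-WT replicate 3 for Gfap. Under that removal the other counts over all genes were 241 for VERCUR-CD against VEH-CD, 649 for VERCUR-WT against VEH-WT, 448 for VERCUR-CD against VERCUR-WT, 840 for VERCUR-CD against VEH-WT, 837 and 442 for the mean genotype and treatment differences and 492 for the interaction. The smallest limma adjusted p of any of the 10 genes was 0.0678, for Aqp4 in the mean genotype difference under the same removal. The log2 fold changes of the 10 genes kept their sign in 1851 alternative values and changed it in 119, in none of which a gene was called. Many of the 1851 could not change sign. The filters, no intensity trend, only the groups compared, the block and no fold change limit leave a log2 fold change as it was. So does leaving out a mouse of a group outside the comparison. The planned edgeR and DESeq2 tests on reads recovered from the steps of the values were not run. With 3 mice a group, differences inside the 95% interval of a gene are not excluded for that gene.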

Other observations

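Ppp1r3c, which targets a phosphatase to glycogen, the energy store that brain tissue keeps mainly in astrocytes, was singled out after the values were seen, since it had the smallest adjusted p of the astrocyte lists in VEH-CD against VEH-WT mice. Its normalized counts were 2501, 2494 and 2221 in VEH-WT mice and 1862, 1759 and 2062 in VEH-CD mice, with no overlap. In VERCUR-WT mice they were 2004, 1915 and 2046, and in VERCUR-CD mice 2345, 2215 and 2089, so that the order of the genotypes was opposite under treatment. Under vehicle the genotypes differed by -0.35 ± 0.08 on the log2 scale (limma adjusted p = 0.104). The interaction of genotype and treatment was 0.50 ± 0.11 on the log2 scale (limma adjusted p = 0.783). Neither passed the threshold. The interaction contains the vehicle difference by which the gene was chosen, so its size is not separate from that choice.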
